A study of Mus musculus with 5 samples.

Results

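The ZRS is the enhancer that drives Sonic hedgehog (Shh) in the limb, and it lies inside an intron of Lmbr1. Here the 3 bins of 5 kb that surround it, on chromosome 5 from 29.305 to 29.32 Mb of mm10, were used as a viewpoint: every contact between 1 of these bins and a bin 20 kb or more away was taken from each of 6 capture Hi-C maps. The captured region on chromosome 5 runs from 27,480,001 to 30,270,000 in 558 bins. The usable bin pairs of the viewpoint numbered 1,638 in intraTAD2, 1,635 in i4CTCF, 1,632 in 2xBorCTCF and 1,635 in 1xBorCTCF, against 1,632 in wild type, of 149,899 to 150,990 such pairs in these maps. In intraTAD3 only 1 of the 3 bins was usable, with 546 of 149,898 pairs, and that map is described apart. The members were set by position and not by any measured value.

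The maps came from limb buds of E10.5 mouse embryos. The mutant genotypes were homozygous intraTAD2, homozygous intraTAD3, and 3 homozygous genotypes whose names extend intraTAD2, namely intraTAD2-i4CTCF, intraTAD2-2xBorCTCF and intraTAD2-1xBorCTCF (hereafter i4CTCF, 2xBorCTCF and 1xBorCTCF). Per the labels, the embryos of intraTAD2, intraTAD3 and i4CTCF were obtained by mating. Those of 2xBorCTCF and 1xBorCTCF were obtained by tetraploid aggregation, a method that builds the embryo from stem cells placed with a tetraploid host. Each mutant genotype had 1 library. The wild-type map is no sample of the series and is given as the authors' value. The sources used here do not give what each allele changes in the DNA. Genotype and library origin cannot be told apart in any ratio to wild type. Genotype and the way the embryos were made cannot be told apart in any ratio of 2xBorCTCF or 1xBorCTCF to intraTAD2. A limb bud holds several cell types, and fewer cells with a contact cannot be told apart from a weaker contact in each cell.

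Shh encodes a secreted signal that sets which digits form where across the limb bud, and the ZRS activates it from a great distance in a small posterior group of limb bud cells. The gene and its enhancer sit near opposite ends of a topologically associating domain, a stretch of chromatin whose parts contact each other more than they contact the outside. The ends of such domains are commonly bound by CTCF, a protein that halts the cohesin complex while it extrudes DNA loops. Genes that share a domain with an enhancer, or lie just past its border, are its potential contact partners, whether or not it activates them.

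The sequences of 3 start sites that face the viewpoint are shown because the contact values below can be read against them. They lie on either side of the viewpoint and of the domain border inside Lmbr1. They are Rnf32, which encodes a RING finger protein and is the next gene toward Shh, Lmbr1, the host gene of the ZRS, and Mnx1, a homeobox gene of motor neurons and pancreas that lies beyond the border. Each runs from 250 bases before to 50 bases after the start of transcription, in RefSeq on GRCm38.p6, written 5′ to 3′ on the strand of the gene, with CCCTC or its reverse complement GAGGG, the core of the CTCF motif, in capitals. Rnf32 is chr5:29195743-29196042 on the plus strand, Lmbr1 is chr5:29378341-29378640 on the minus strand and Mnx1 is chr5:29478421-29478720 on the minus strand.
Rnf32: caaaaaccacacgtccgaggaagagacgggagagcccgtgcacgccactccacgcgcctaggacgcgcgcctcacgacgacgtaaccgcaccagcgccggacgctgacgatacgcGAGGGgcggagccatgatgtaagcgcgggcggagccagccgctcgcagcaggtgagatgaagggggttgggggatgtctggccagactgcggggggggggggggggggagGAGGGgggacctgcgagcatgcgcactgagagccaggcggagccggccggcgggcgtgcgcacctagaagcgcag
Lmbr1: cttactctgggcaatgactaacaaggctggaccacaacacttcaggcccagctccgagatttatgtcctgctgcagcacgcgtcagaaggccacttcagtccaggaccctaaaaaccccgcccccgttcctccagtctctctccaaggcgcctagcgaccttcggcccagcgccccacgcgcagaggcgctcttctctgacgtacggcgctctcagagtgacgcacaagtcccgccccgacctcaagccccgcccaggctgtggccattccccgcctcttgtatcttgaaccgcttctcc
Mnx1: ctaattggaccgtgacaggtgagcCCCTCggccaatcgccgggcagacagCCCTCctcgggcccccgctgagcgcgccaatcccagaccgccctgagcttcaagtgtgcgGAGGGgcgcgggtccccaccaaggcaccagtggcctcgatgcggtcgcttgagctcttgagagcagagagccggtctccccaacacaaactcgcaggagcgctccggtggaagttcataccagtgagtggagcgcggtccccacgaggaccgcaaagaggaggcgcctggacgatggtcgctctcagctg
The core occurred 2 times in Rnf32, 0 times in Lmbr1 and 3 times in Mnx1, on either strand. It occurs in 66% (21,666 of 32,851) of promoters of that length in the same table, so these matches describe letters and not binding. The contact of the viewpoint with the bin of the start site and 1 bin either side, set relative to the average at the same distance, was 0.921 in intraTAD2, 0.837 in i4CTCF, 0.891 in 2xBorCTCF and 1.01 in 1xBorCTCF, against 0.999 in wild type for Rnf32. For the start of Lmbr1 it was 0.561 in intraTAD2, 0.658 in i4CTCF, 0.482 in 2xBorCTCF and 0.606 in 1xBorCTCF, against 0.699 in wild type, and for the start of Mnx1 it was 0.435 in intraTAD2, 0.417 in i4CTCF, 0.354 in 2xBorCTCF and 0.439 in 1xBorCTCF, against 0.604 in wild type. All 5 maps thus had the start of Rnf32 near the average for its distance and the starts of Lmbr1 and Mnx1 below it. The promoter table used here held no entry for Shh.

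Contacts were enriched for the captured region before paired-end sequencing, and the authors deposited balanced values, in which every bin is scaled to the same total. Whole contacts could be recovered from them and numbered 1,121,373 (2xBorCTCF) to 2,942,790 (intraTAD2) a map. Of these, the viewpoint pairs held 20,032 in intraTAD2, 7,587 in i4CTCF, 6,804 in 2xBorCTCF and 12,824 in 1xBorCTCF, against 14,709 in wild type. A contact level is the balanced value divided by the mean of all usable pairs at the same distance in the same map, so that 1 is average. With 1 library a genotype no test was possible, and the 95% intervals hold counting error but no spread between embryos.

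The 3 viewpoint bins were not equally well covered. The first had 55.7%, 48.0%, 48.8% and 47.5% of the contacts of the median bin in intraTAD2, i4CTCF, 2xBorCTCF and 1xBorCTCF, and 55.6% in wild type. The second bin had 98.7% in intraTAD2, 99.4% in i4CTCF, 87.4% in 2xBorCTCF and 95% in 1xBorCTCF, against 143% in wild type. The third bin had 99.3% in intraTAD2, 102% in i4CTCF, 164% in 2xBorCTCF and 101% in 1xBorCTCF, against 152% in wild type. The wild-type map was thus the best covered at the second bin and the 2xBorCTCF map at the third. Over the 3 bins, coverage was 81.3 to 100.1% of the median bin in these 4 mutants, against 117% in wild type. Over the 15 kb next to it on the Shh side the order was the other way, with 113 to 119% in the mutants, against 92.5% in wild type. In 2xBorCTCF the third bin had 2,421 contacts with itself, against 186, 157 and 272 in intraTAD2, i4CTCF and 1xBorCTCF and 316 in wild type. Self-contacts made up 31.2% of the balanced total of that bin, against a median of 6.14% over all bins of the map. Balancing gives every bin the same total, self-contacts included. The mean level of this bin over all pairs 20 kb or more away was 0.967 in 2xBorCTCF, against 1.46 in intraTAD2, 1.45 in i4CTCF, 1.35 in 1xBorCTCF and 1.34 in wild type. The part of the self-contacts in this was not tested. Levels of 2xBorCTCF are also given with each viewpoint bin divided by its own mean level, a scaling added after the values had been seen. On that scale a change shared by all distances cannot show.

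**Figure D1:**
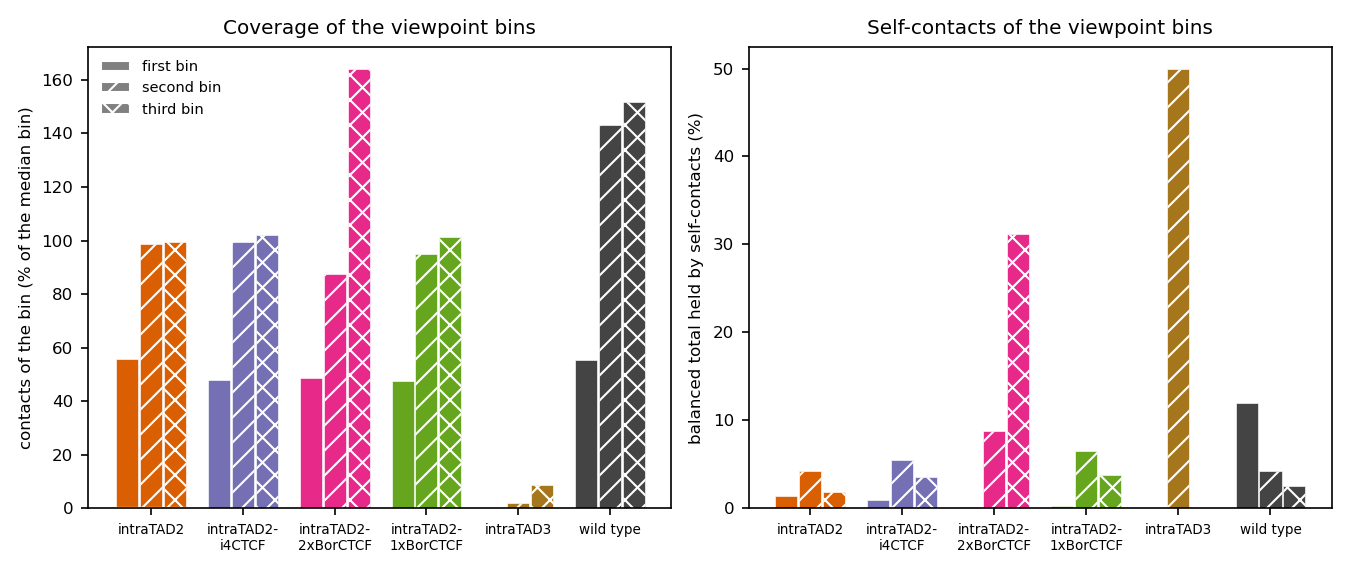
Bars give, for each of the 3 viewpoint bins and each map, the contacts of the bin as a percent of the median bin of that map (left) and the percent of the bin's balanced total held by contacts with itself (right). The third bin of 2xBorCTCF stands at 164% on the left and 31.2% on the right, and the bins of intraTAD3 are nearly empty on the left.

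The highest levels of the viewpoint lay around Shh in all 5 maps. In 4 of the 5 maps the window of 25 kb with the highest level was 28,430,001 to 28,455,000, the interval between Rbm33 and Shh, with 7.00 in intraTAD2, 5.88 in i4CTCF, 5.98 in 1xBorCTCF and 5.13 in wild type. In 2xBorCTCF the window that holds Shh, 28,455,001 to 28,480,000, was highest with 4.68, and 28,430,001 to 28,455,000 had 3.77 (2.58 to 5.51). The Shh window itself had 6.11 in intraTAD2, 4.96 in i4CTCF, 4.68 in 2xBorCTCF and 4.99 in 1xBorCTCF, against 5.07 in wild type. The window on the far side of that interval, 28,405,001 to 28,430,000, which overlaps the end of Rbm33, had 5.02 in intraTAD2, 4.69 in i4CTCF, 3.98 in 2xBorCTCF and 3.92 in 1xBorCTCF, against 4.05 in wild type. The 5 highest windows of all 5 maps lay between 28,380,001 and 28,530,000.

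**Figure D2:**
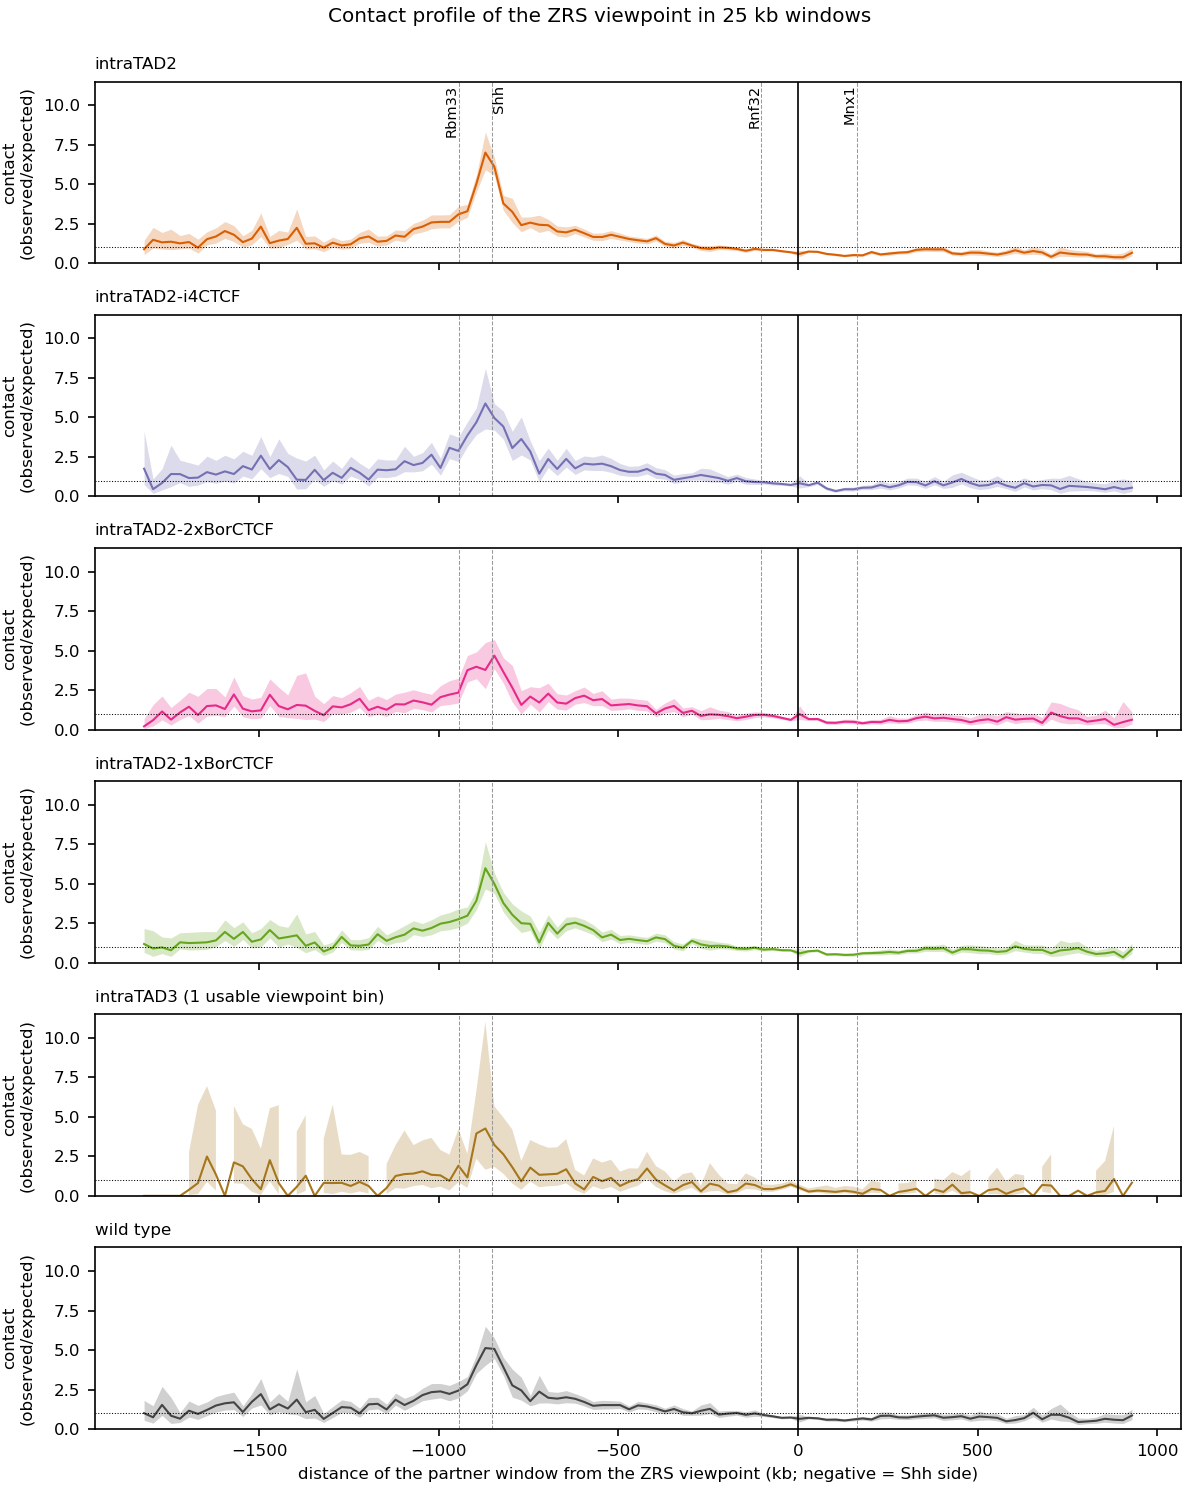
The mean distance-normalised contact of the ZRS viewpoint in windows of 25 kb (line) and its 95% counting interval (shade) is plotted against the distance of the window from the viewpoint, in kb, 1 panel for each map. Dashed lines mark genes, the dotted line marks the average of 1, and windows at 0 in intraTAD3 have no interval. Each panel peaks at or beside Shh, while most windows on the Mnx1 side lie below 1.

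The levels climbed with distance toward Shh and stayed low on the other side. From 20 to 100 kb on the Shh side they were 0.786 in intraTAD2, 0.816 in i4CTCF, 0.809 in 2xBorCTCF and 0.815 in 1xBorCTCF, against 0.759 in wild type. From 100 to 300 kb they were 0.926 in intraTAD2, 1.12 in i4CTCF, 0.898 in 2xBorCTCF and 1.03 in 1xBorCTCF, against 1.02 in wild type, and from 300 to 600 kb 1.49 in intraTAD2, 1.59 in i4CTCF, 1.5 in 2xBorCTCF and 1.52 in 1xBorCTCF, against 1.37 in wild type. From 600 to 900 kb, the band that holds Shh, they were 3.34 in intraTAD2, 3.22 in i4CTCF, 2.59 in 2xBorCTCF and 3.06 in 1xBorCTCF, against 2.86 in wild type. On the Mnx1 side the bands from 20 to 900 kb spanned 0.486 to 0.826 over the 5 maps. The level from 100 to 300 kb on that side was 0.567, 0.557, 0.486 and 0.601 in intraTAD2, i4CTCF, 2xBorCTCF and 1xBorCTCF, and 0.687 (0.639 to 0.739) in wild type. The intervals of intraTAD2, i4CTCF and 2xBorCTCF lay below that of wild type, and that of 1xBorCTCF overlapped it.

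Domain borders were placed by insulation, the drop in contact across a point. The lowest point was sought only between Rbm33 and Shh and inside Lmbr1, so a border in each of these stretches was set beforehand. The wild-type domain so defined ran from 28,440,001 to 29,355,001, or 915 kb, and the viewpoint ended 35 kb short of its border inside Lmbr1. With insulation in 50 kb windows the borders were 28,445,001 and 29,375,001, the latter at the edge of the searched stretch. The share of the viewpoint's balanced contact that fell in this domain was 57.9% (57.2 to 58.6) in intraTAD2, 58.0% (56.9 to 59.1) in i4CTCF, 58.7% (57.5 to 59.8) in 2xBorCTCF, 57.4% (56.6 to 58.3) in 1xBorCTCF and 55.8% (55.0 to 56.6) in wild type. The shares of the mutants were 1.60 to 2.85 percentage points above that of wild type, and among these mutants the intervals overlapped. On the recovered contacts of the third viewpoint bin alone the shares were 56.8%, 56.0%, 58.3% and 57.2% in the mutants in the same order. Wild type then had 55.6% (54.4 to 56.8), and its interval overlapped that of each of these mutants. For the 3 bins, distance alone would have placed 51.2 to 52.4% in the domain. Past the border inside Lmbr1, toward Mnx1, lay 23.3% in intraTAD2, 22.9% in i4CTCF, 22.7% in 2xBorCTCF and 24.3% in 1xBorCTCF, against 25.4% in wild type, where distance alone would have placed 37.3 to 38.0%. Past the other border, toward En2, lay 18.2 to 19.1%, with 9.64 to 11.2% by distance alone. In all 5 maps the viewpoint thus contacted the chromatin beyond Shh more, and the chromatin beyond Lmbr1 less, than pairs at the same distances did on average.

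Contact with Shh itself (28,456,840 to 28,467,101, with 1 bin either side) was 6.84 (95% interval 6.26 to 7.46, 563 contacts) in intraTAD2, 4.99 (95% interval 4.21 to 5.90, 159 contacts) in i4CTCF, 4.98 (95% interval 4.13 to 6.01, 142 contacts) in 2xBorCTCF, 5.54 (95% interval 4.90 to 6.27, 311 contacts) in 1xBorCTCF and 5.57 (95% interval 4.93 to 6.30, 340 contacts) in wild type. intraTAD2 was the highest, and the other 3 mutants lay at or below wild type. Against wild type the log2 ratio was 0.29 (95% interval 0.08 to 0.51) for intraTAD2, the only one of the 4 whose interval left out 0. It was -0.16 (-0.46 to 0.14) for i4CTCF, -0.16 (-0.49 to 0.16) for 2xBorCTCF and -0.01 (-0.26 to 0.24) for 1xBorCTCF. With each viewpoint bin divided by its own mean level the ratio of intraTAD2 to wild type was 0.20 (-0.02 to 0.41), so that its interval then reached 0. On recovered contacts without balancing it was -0.11, below wild type, where the viewpoint bins of the wild-type map had the higher coverage given above.

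All 3 genotypes that extend intraTAD2 had less contact between the viewpoint and Shh than intraTAD2 did. The log2 ratio was -0.46 (95% interval -0.73 to -0.18) for i4CTCF, -0.46 (95% interval -0.76 to -0.16) for 2xBorCTCF and -0.30 (95% interval -0.52 to -0.08) for 1xBorCTCF. These 3 ratios share the intraTAD2 library and are not independent of each other. With each viewpoint bin divided by its own mean level they were -0.49 (-0.76 to -0.22), -0.27 (-0.55 to 0.02) and -0.28 (-0.49 to -0.06) in that order, so the interval of 2xBorCTCF then held 0 while the others did not. For i4CTCF the ratio over the body of Shh alone was -0.15 (-0.48 to 0.19). Between 2xBorCTCF and 1xBorCTCF the ratio was -0.15 (-0.48 to 0.17), which allows a difference up to 0.17 and down to -0.48.

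The bins of the viewpoint differed among themselves by no more than their counting error. In intraTAD2 the first, the second and the third bin had Shh levels of 7.30, 6.43 and 6.78. In i4CTCF they had 5.04, 4.68 and 5.23, and in 2xBorCTCF 5.16, 5.50 and 4.29. In 1xBorCTCF they had 6.67, 5.13 and 4.83, and in wild type 4.69, 6.45 and 5.58. Within each map the intervals of its 3 bins overlapped. In each of the 3 bins the level of intraTAD2 was above those of i4CTCF, 2xBorCTCF and 1xBorCTCF.

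**Figure D3:**
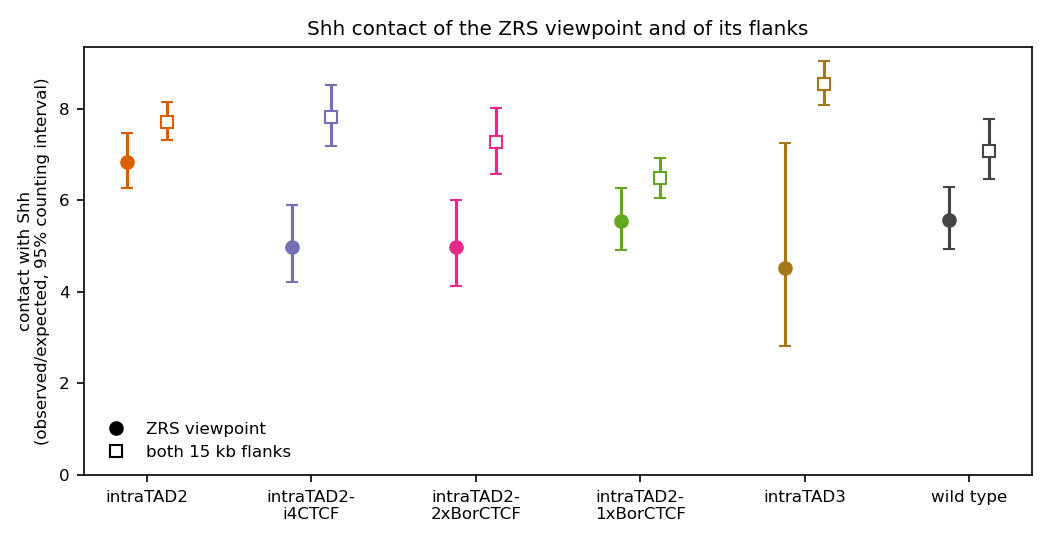
Filled circles give the distance-normalised contact of the ZRS viewpoint with Shh in each map, and open squares that of the 15 kb on either side of the viewpoint pooled, with 95% counting intervals. The viewpoint lies below its flanks in the 5 maps other than intraTAD3, and the gap is -0.65 on the log2 scale in i4CTCF and -0.17 in intraTAD2. In intraTAD3 it lies below them too, by -0.92, but the ratio is 0.01 (-0.67 to 0.70) with every bin divided by its own mean level.

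The ZRS bins were not the part of Lmbr1 with the most Shh contact. The 15 kb just before the viewpoint, on its Shh side, had levels of 8.61 in intraTAD2, 8.84 in i4CTCF, 7.48 in 2xBorCTCF and 6.90 in 1xBorCTCF, against 7.20 in wild type, and the 15 kb just after it had 6.82 in intraTAD2, 6.79 in i4CTCF, 7.04 in 2xBorCTCF and 6.06 in 1xBorCTCF, against 6.97 in wild type. Set against both flanks, the log2 ratio of the viewpoint at Shh was -0.17 (-0.32 to -0.03) in intraTAD2, -0.65 (-0.92 to -0.37) in i4CTCF, -0.54 (-0.85 to -0.24) in 2xBorCTCF, -0.22 (-0.43 to -0.02) in 1xBorCTCF and -0.35 (-0.57 to -0.13) in wild type. All of these intervals lay below 0. With every bin divided by its own mean level the interval of intraTAD2 reached 0.02 and those of the other 4 maps stayed below 0. On recovered contacts without balancing the ratio of wild type was 0.04. The gap was wider in i4CTCF than in intraTAD2, with a difference of -0.47 (-0.78 to -0.16) between the log2 ratios, and likewise in 2xBorCTCF, with -0.37 (-0.71 to -0.03). Between 1xBorCTCF and intraTAD2 the difference was -0.05 (-0.30 to 0.20). The flanks themselves had 7.81 in i4CTCF, 7.26 in 2xBorCTCF and 6.48 in 1xBorCTCF, against 7.71 in intraTAD2. Against wild type none of the 4 mutants had a difference at Shh whose interval left out 0, with 0.17 (-0.09 to 0.44) for intraTAD2 and -0.30 (-0.65 to 0.05) for i4CTCF.

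At Rnf32 the log2 ratio of viewpoint to flanks was between -0.08 and 0.02 in the 5 maps, and at Mnx1 between -0.18 and 0.18, with 0 inside every interval. At Nom1 the ratio was -0.22 (-0.42 to -0.02) in intraTAD2, and at Rbm33 -0.17 (-0.32 to -0.02) in wild type. At En2 it was -0.53 (-1.28 to 0.21) in 2xBorCTCF. Over the part of the Shh domain 50 kb or more from the viewpoint it was -0.11 (-0.17 to -0.06) in intraTAD2, -0.10 (-0.19 to -0.01) in i4CTCF, -0.24 (-0.34 to -0.15) in 2xBorCTCF, -0.05 (-0.12 to 0.02) in 1xBorCTCF and -0.20 (-0.27 to -0.12) in wild type. 1xBorCTCF differed from wild type by 0.15 (0.05 to 0.25) in this ratio. Over the Mnx1 side at the same distances the ratio was 0.00 (-0.08 to 0.07) in intraTAD2, -0.03 (-0.15 to 0.10) in i4CTCF, -0.20 (-0.34 to -0.06) in 2xBorCTCF and 0.05 (-0.04 to 0.14) in 1xBorCTCF, against 0.15 (0.05 to 0.25) in wild type. There the difference from wild type was -0.16 (-0.28 to -0.03) for intraTAD2, -0.18 (-0.33 to -0.02) for i4CTCF and -0.35 (-0.52 to -0.18) for 2xBorCTCF, all below 0, and -0.10 (-0.23 to 0.03) for 1xBorCTCF.

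**Figure D4:**
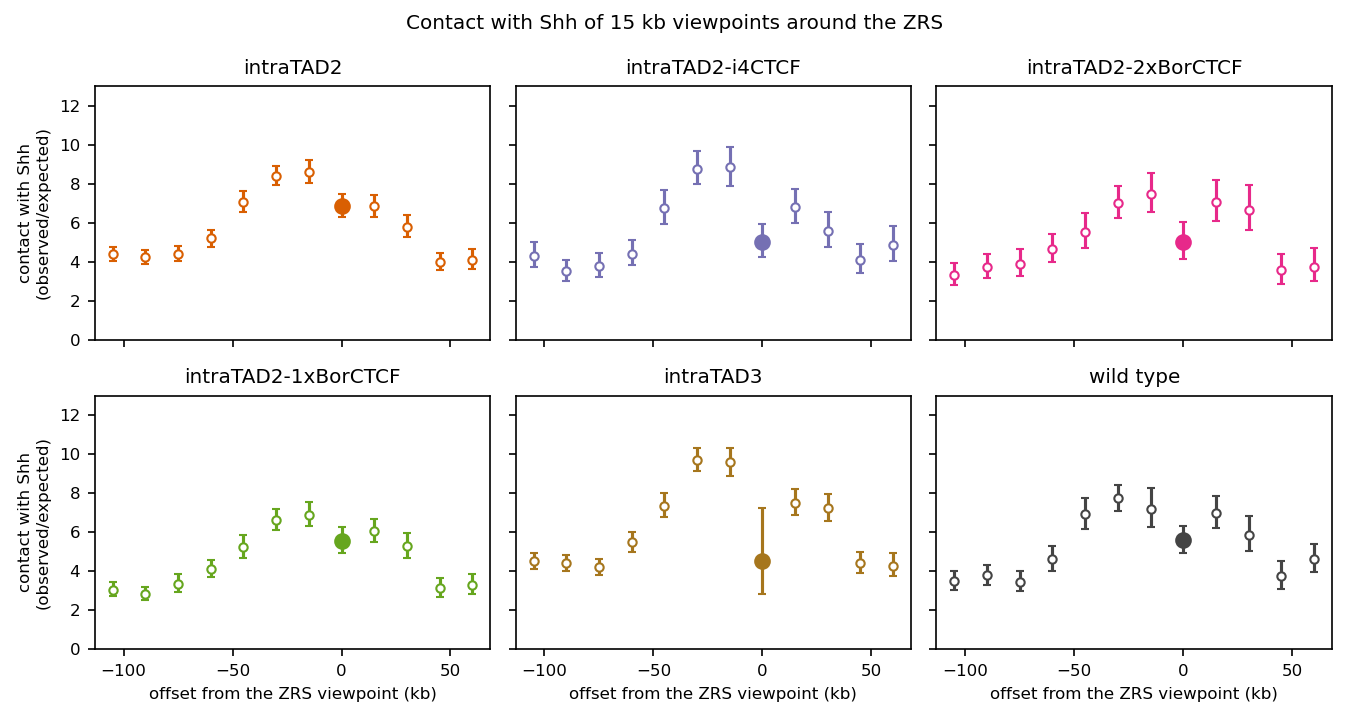
Each panel gives the distance-normalised contact with Shh of 12 adjoining viewpoints of 15 kb in 1 map, against their offset from the ZRS viewpoint in kb (negative toward Shh), with 95% counting intervals, and the filled circle is the ZRS viewpoint. Levels peak 15 to 30 kb before the ZRS viewpoint in every panel, at 8.61 in intraTAD2, 8.84 in i4CTCF and 7.74 in wild type.

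Beyond Shh, 13 genes of the region were followed, each over its body with 1 bin either side. Lmbr1, which spans the border and was read without the bins within 20 kb of the viewpoint, had levels of 0.753 in intraTAD2, 0.798 in i4CTCF, 0.733 in 2xBorCTCF and 0.783 in 1xBorCTCF, against 0.727 in wild type, and Rnf32, inside the domain, had 0.880 in intraTAD2, 0.883 in i4CTCF, 0.913 in 2xBorCTCF and 0.891 in 1xBorCTCF, against 0.902 in wild type. Both lay below the average for their distance in all 5 maps. Across the border beside Shh, Rbm33, which encodes an RNA-binding protein, had 3.31 in intraTAD2, 3.18 in i4CTCF, 2.82 in 2xBorCTCF and 2.93 in 1xBorCTCF, against 2.72 in wild type. Cnpy1, whose zebrafish counterpart regulates fibroblast growth factor signalling, had 1.90 in intraTAD2, 2.05 in i4CTCF, 1.66 in 2xBorCTCF and 1.98 in 1xBorCTCF, against 1.66 in wild type, and En2, a homeobox gene of the midbrain and hindbrain, had 1.36 in intraTAD2, 1.35 in i4CTCF, 1.34 in 2xBorCTCF and 1.46 in 1xBorCTCF, against 1.30 in wild type. Farther out on this side Insig1, a regulator of sterol synthesis, had 1.29 in intraTAD2, 1.92 in i4CTCF, 1.75 in 2xBorCTCF and 0.974 in 1xBorCTCF, against 1.41 in wild type. Htr5a, a serotonin receptor gene, had 1.28 in intraTAD2, 1.93 in i4CTCF, 1.72 in 2xBorCTCF and 1.97 in 1xBorCTCF, against 1.43 in wild type. Paxip1, a gene for a DNA damage response protein, had 1.57 in intraTAD2, 1.78 in i4CTCF, 1.54 in 2xBorCTCF and 1.55 in 1xBorCTCF, against 1.48 in wild type, and Dpp6, an accessory subunit gene of potassium channels, had 1.39 in intraTAD2, 1.26 in i4CTCF, 1.05 in 2xBorCTCF and 1.23 in 1xBorCTCF, against 1.13 in wild type over the part of it inside the captured region. Of these, Rbm33 stood highest and the distal genes had only 23 to 79 contacts a map at En2, Insig1 and Htr5a.

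Past the border inside Lmbr1 all levels were below 1. Nom1, which encodes a nucleolar protein, had 0.471 in intraTAD2, 0.438 in i4CTCF, 0.503 in 2xBorCTCF and 0.509 in 1xBorCTCF, against 0.558 in wild type, and Mnx1 had 0.453 in intraTAD2, 0.466 in i4CTCF, 0.421 in 2xBorCTCF and 0.505 in 1xBorCTCF, against 0.556 in wild type. Ube3c, which encodes a ubiquitin ligase, had 0.749 in intraTAD2, 0.770 in i4CTCF, 0.656 in 2xBorCTCF and 0.742 in 1xBorCTCF, against 0.783 in wild type, and Dnajb6, which encodes a chaperone, had 0.644 in intraTAD2, 0.934 in i4CTCF, 0.636 in 2xBorCTCF and 0.754 in 1xBorCTCF, against 0.735 in wild type. Mnx1 and Nom1, the nearest of the 4 to the viewpoint, had the lowest levels in these 5 maps, and their gaps to the viewpoint (154 kb for Mnx1 and 115 kb for Nom1) were far shorter than that of Shh (838 kb).

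Against wild type few of the 14 genes had intervals that left out 0. In intraTAD2 there were 3 higher and 0 lower, where 4.19% of windows of 25 kb seen from all 15 kb viewpoints of the region were higher and 4.08% lower by the same rule. The 3 were Shh, Rbm33 with a log2 ratio of 0.29 (95% interval 0.13 to 0.44) and Dpp6 with 0.30 (95% interval 0.03 to 0.58). In i4CTCF there were 2 higher and 0 lower, where 3.63% of windows were higher and 3.67% lower. These were Rbm33 with 0.23 (95% interval 0.03 to 0.42) and Lmbr1 with 0.13 (95% interval 0.03 to 0.24). In 1xBorCTCF there were 1 higher and 0 lower, where 4.82% of windows were higher and 4.07% lower, and the gene was Lmbr1 with 0.11 (95% interval 0.02 to 0.20). In 2xBorCTCF there were 0 higher and 1 lower, where 4.86% of windows were higher and 4.07% lower, and the gene was Ube3c with -0.26 (95% interval -0.50 to -0.02). With 1 gene of 14, the counts of 1xBorCTCF and 2xBorCTCF are near these shares and are no result about the viewpoint. The genes differ from windows of 25 kb in width and in contacts, so here and below the shares are only a rough background for them. The median log2 ratio over the 14 genes was 0.01 in intraTAD2, 0.15 in i4CTCF, 0.01 in 2xBorCTCF and 0.05 in 1xBorCTCF. Over all windows and viewpoints it lay between -0.01 and 0.02.

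With each viewpoint bin divided by its own mean level, Rbm33 in intraTAD2 kept an interval above 0, with 0.18 (0.03 to 0.33). The intervals of Dpp6 in intraTAD2, 0.20 (-0.08 to 0.47), of Rbm33 in i4CTCF, 0.09 (-0.11 to 0.28), of Lmbr1 in i4CTCF, 0.00 (-0.11 to 0.10), of Lmbr1 in 1xBorCTCF, 0.04 (-0.05 to 0.13), and of Ube3c in 2xBorCTCF, -0.13 (-0.36 to 0.10), then held 0. Around the start site of Rbm33 the level was 1.32 in i4CTCF, with 22 contacts, and 2.38 in wild type, the opposite order to the whole gene. Contact with Rnf32 differed by no more than counting error in the 4 mutants, with log2 ratios between -0.04 and 0.02 and intervals reaching from -0.23 to 0.22. Mnx1 and Nom1 had negative ratios in all 4, from -0.40 to -0.13, with 0 inside every interval, and the 4 comparisons share the wild-type map.

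**Figure D5:**
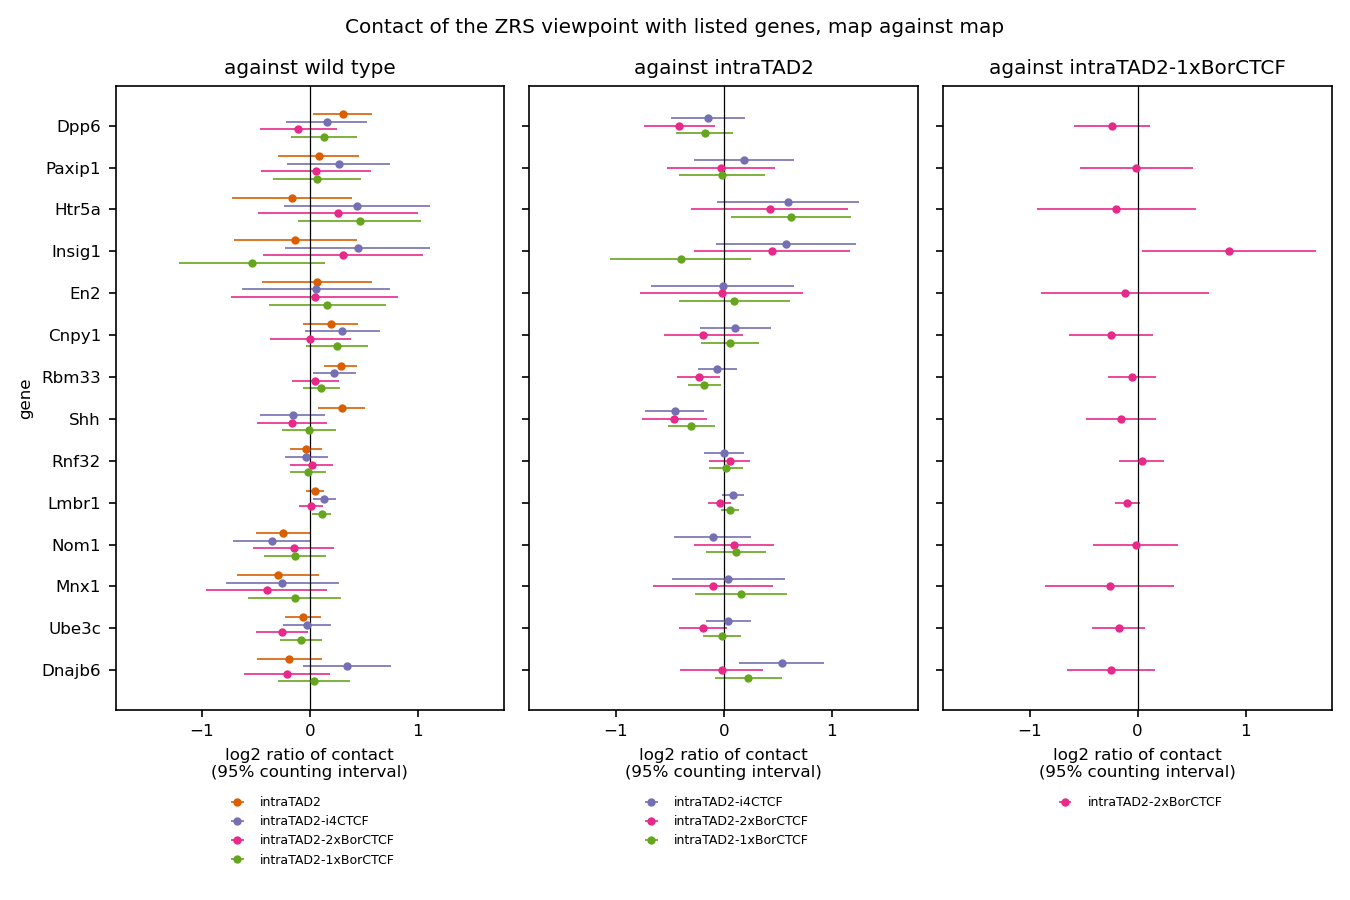
Points give the log2 ratio of the viewpoint's contact with each of 14 genes, ordered along the chromosome, for mutants against wild type (left), for genotypes that extend intraTAD2 against intraTAD2 (middle) and for 2xBorCTCF against 1xBorCTCF (right), with 95% counting intervals. Shh lies at 0.29 for intraTAD2 in the left panel and at -0.46, -0.46 and -0.30 in the middle panel.

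Against intraTAD2 the genes other than Shh that differed were few. i4CTCF had 1 higher and 1 lower, where 3.74% of windows were higher and 3.87% lower. The higher one was Dnajb6, with 0.934 in i4CTCF, against 0.644 in intraTAD2 and a log2 ratio of 0.54 (95% interval 0.14 to 0.93). With 1 gene of 14 in each direction, the counts of i4CTCF are near these shares and are no result about the viewpoint. 2xBorCTCF had 0 higher and 3 lower, where 4.55% of windows were higher and 4.22% lower. Beside Shh these were Rbm33 with -0.23 (95% interval -0.44 to -0.03) and Dpp6 with -0.41 (95% interval -0.74 to -0.09). With the viewpoint bins divided by their own mean the ratios were -0.10 (-0.30 to 0.09) for Rbm33 and -0.23 (-0.54 to 0.09) for Dpp6. On that scale none of the 14 genes was lower, and Lmbr1, with 0.13, and Rnf32, with 0.19, had intervals above 0.

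1xBorCTCF had 1 higher and 2 lower against intraTAD2, where 5.45% of windows were higher and 4.65% lower. Beside Shh the lower one was Rbm33, with -0.18 (95% interval -0.33 to -0.02), and the higher one was Htr5a, with a level of 1.97 in 1xBorCTCF, against 1.28 in intraTAD2 and a ratio of 0.62 (95% interval 0.07 to 1.18). Between 2xBorCTCF and 1xBorCTCF, Insig1 alone differed, with 1.75 on 28 contacts in 2xBorCTCF, against 0.974 on 34 contacts in 1xBorCTCF and a ratio of 0.84 (95% interval 0.04 to 1.65). By the same rule 2.98% of windows were higher and 3.75% lower in that comparison. A count of 1 higher gene of 14, here and in 1xBorCTCF against intraTAD2, is near these shares and is no result about the viewpoint. With the third viewpoint bin alone the ratio of Insig1 was -0.57, the other way. The median ratio of the 14 genes was -0.14, and 0.01 with the viewpoint bins divided by their own mean.

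The profile was also read in 111 windows of 25 kb, of which those past a 1.5-fold difference were counted. Of these, 5 were higher and 4 lower for intraTAD2 against wild type, where all viewpoints of the region gave 5.99% higher and 5.29% lower. In the same way 7 were higher and 8 lower for i4CTCF against wild type, where all viewpoints of the region gave 7.59% higher and 9.29% lower. Further, 6 were higher and 7 lower for 2xBorCTCF against wild type, where all viewpoints of the region gave 9.62% higher and 9.51% lower, and 5 were higher and 5 lower for 1xBorCTCF against wild type, where all viewpoints of the region gave 7.96% higher and 6.12% lower. The windows of the ZRS viewpoint thus passed this fold at shares of 3.6 to 7.21% a direction. Likewise, 8 were higher and 7 lower for i4CTCF against intraTAD2, where all viewpoints of the region gave 5.64% higher and 8.02% lower. Next, 4 were higher and 10 lower for 2xBorCTCF against intraTAD2, where all viewpoints of the region gave 7.6% higher and 7.9% lower, and 3 were higher and 4 lower for 1xBorCTCF against intraTAD2, where all viewpoints of the region gave 5.64% higher and 4.45% lower. Last, 4 were higher and 9 lower for 2xBorCTCF against 1xBorCTCF, where all viewpoints of the region gave 6.7% higher and 8.81% lower. Most counts were near the background, so the number of windows past this fold is no result about the viewpoint. By intervals, 6 of 40 windows within 500 kb (15%) were lower in 2xBorCTCF than in wild type, against 4.35% for all viewpoints, and 5 of 40 windows within 500 kb (12.5%) were lower in intraTAD2 than in wild type, against 4.42% for all viewpoints. In contrast, 1 of 40 windows within 500 kb (2.50%) were lower in i4CTCF than in wild type, against 3.92% for all viewpoints and 0 of 40 windows within 500 kb (0%) were lower in 1xBorCTCF than in wild type, against 4.57% for all viewpoints. Farther away, 9 of 71 windows beyond 500 kb (12.7%) were higher in 1xBorCTCF than in wild type, against 4.51% for all viewpoints, and 6 of 71 windows beyond 500 kb (8.45%) were higher in intraTAD2 than in wild type, against 3.92% for all viewpoints. By the same count, 6 of 71 windows beyond 500 kb (8.45%) were higher in i4CTCF than in wild type, against 3.28% for all viewpoints, and 3 of 71 windows beyond 500 kb (4.23%) were higher in 2xBorCTCF than in wild type, against 4.37% for all viewpoints. In the opposite directions, 1, 1, 0 and 2 of 40 windows within 500 kb were higher in intraTAD2, i4CTCF, 2xBorCTCF and 1xBorCTCF. Beyond 500 kb, 1, 0, 1 and 1 of 71 were lower in that order. For these opposite directions no share over all viewpoints is given by distance, so they cannot be set against a background of the same distances. Over all 111 windows, 7 were higher and 6 lower in intraTAD2, and 7 and 1 in i4CTCF. Those of 2xBorCTCF were 3 and 7, and those of 1xBorCTCF 11 and 1. All viewpoints gave 3.63 to 4.86% higher and 3.67 to 4.08% lower over all distances. The mean level of the viewpoint over all its pairs was 1.41 in intraTAD2, 1.44 in i4CTCF, 1.25 in 2xBorCTCF and 1.38 in 1xBorCTCF, against 1.31 in wild type, and its part in these counts was not tested.

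Among windows with 20 contacts or more over the compared maps and an interval that left out 0, those at the extremes were as follows. The window 28,555,001 to 28,580,000, in the gene desert between Shh and Rnf32, had a level of 2.57 in intraTAD2, against 1.77 in wild type, a log2 ratio of 0.54 (0.21 to 0.86). It had 2.84 in i4CTCF, against 1.77 in wild type, a log2 ratio of 0.69 (0.28 to 1.09). On recovered contacts without balancing the ratio of intraTAD2 to wild type there was -0.12. The next window, 28,580,001 to 28,605,000, had 1.28 in 1xBorCTCF, against 2.37 in wild type, a log2 ratio of -0.88 (-1.67 to -0.10), and 1.28 in 1xBorCTCF, against 2.43 in intraTAD2, a log2 ratio of -0.92 (-1.59 to -0.25). It was also lower in i4CTCF, with 1.44 in i4CTCF, against 2.43 in intraTAD2, a log2 ratio of -0.76 (-1.49 to -0.03). These adjoining desert windows were thus named in opposite directions, but in different comparisons. The second of them had 2.43 in intraTAD2, against 2.37 in wild type.

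On the Mnx1 side the window 29,405,001 to 29,430,000, just past Lmbr1, had 0.336 in i4CTCF, against 0.599 in wild type, a log2 ratio of -0.83 (-1.29 to -0.37), and 0.336 in i4CTCF, against 0.531 in intraTAD2, a log2 ratio of -0.66 (-1.09 to -0.24). The window 29,530,001 to 29,555,000, between Mnx1 and Ube3c, had 0.551 in intraTAD2, against 0.835 in wild type, a log2 ratio of -0.60 (-1.06 to -0.14), and 0.468 in 2xBorCTCF, against 0.835 in wild type, a log2 ratio of -0.83 (-1.43 to -0.24). The window 30,005,001 to 30,030,000, which holds the cytokine gene Il6, had 0.403 in intraTAD2, against 0.908 in wild type, a log2 ratio of -1.17 (-1.92 to -0.43). It had 1.07 in 2xBorCTCF, against 0.403 in intraTAD2, a log2 ratio of 1.41 (0.53 to 2.29), on 26 and 39 contacts. In the window of Dnajb6 from 29,755,001 the level was 1.10 in i4CTCF, against 0.575 in intraTAD2, a log2 ratio of 0.94 (0.36 to 1.52), and 0.860 in 1xBorCTCF, against 0.575 in intraTAD2, a log2 ratio of 0.58 (0.09 to 1.07). At the border beside Shh the window 28,430,001 to 28,455,000 had 3.77 in 2xBorCTCF, against 7.00 in intraTAD2, a log2 ratio of -0.89 (-1.49 to -0.29), and 3.77 in 2xBorCTCF, against 5.98 in 1xBorCTCF, a log2 ratio of -0.67 (-1.32 to -0.01).

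In the far part of the region, beyond Shh, the window 27,580,001 to 27,605,000 within Dpp6 was higher than in wild type in 3 mutants, with log2 ratios of 0.93, 1.09 and 0.97 in intraTAD2, i4CTCF and 1xBorCTCF. These ratios share the wild-type value of 0.661, which rests on 21 contacts. The window 28,080,001 to 28,105,000, just past Insig1, had 1.95 in 2xBorCTCF, against 0.997 in wild type, a log2 ratio of 0.97 (0.33 to 1.60), and 1.95 in 2xBorCTCF, against 1.07 in 1xBorCTCF, a log2 ratio of 0.86 (0.20 to 1.52). With the third viewpoint bin alone these ratios were -0.06 to wild type and -0.27 to 1xBorCTCF. The window 27,830,001 to 27,855,000, which overlaps Htr5a, had 2.2 in 2xBorCTCF, against 1.27 in intraTAD2, a log2 ratio of 0.80 (0.11 to 1.48), and 2.07 in 1xBorCTCF, against 1.27 in intraTAD2, a log2 ratio of 0.71 (0.13 to 1.29).

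Stretches of 30 kb in the gene desert, chosen because earlier results of these data had drawn attention to them, were read from the same viewpoint. The stretch from 28,670,001 to 28,700,000 had levels of 2.10 (363 contacts) in intraTAD2, 1.97 (104 contacts) in i4CTCF, 1.75 (120 contacts) in 2xBorCTCF, 2.57 (320 contacts) in 1xBorCTCF and 1.98 (229 contacts) in wild type. 1xBorCTCF stood above the others, with a log2 ratio of 0.38 (0.09 to 0.67) to wild type and 0.29 (0.03 to 0.55) to intraTAD2. 2xBorCTCF against 1xBorCTCF gave -0.55 (-0.90 to -0.20), and -0.35 (-0.68 to -0.01) with the viewpoint bins divided by their own mean. intraTAD2 against wild type gave 0.09 (-0.20 to 0.37). The flanks of the viewpoint, 15 kb on either side pooled, had 2.23 in intraTAD2, 2.21 in i4CTCF, 2.60 in 2xBorCTCF and 2.41 in 1xBorCTCF at this stretch, against 1.98 in wild type. In the flanks 1xBorCTCF was thus also above intraTAD2 and wild type, but 2xBorCTCF was the highest. The stretch from 28,860,001 to 28,890,000 had 1.48 in intraTAD2, 1.54 in i4CTCF, 1.62 in 2xBorCTCF and 1.40 in 1xBorCTCF, against 1.47 in wild type, and no comparison of these 5 maps had an interval without 0. Both stretches contacted the viewpoint above the average for their distance in these 5 maps.

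In intraTAD3 the ZRS bins were nearly empty. The first bin had 0 contacts, against 3,019 in wild type. The second had 174, of which 81 were with itself and 89 with the third bin, and the third had 828, or 8.84% of the median bin. The flanking 15 kb were covered as in the other mutants, at 108% and 94.0% of the median bin. The third bin was the only usable one, with 638 contacts 20 kb or more away, spread over 274 of 551 partner bins, 122 of which had 1 contact. Balancing gave each of these contacts a weight 7.03 times that of the median bin, and 49.8% of the balanced total of the bin lay in the single pair with the second bin. Its mean level over all pairs 20 kb or more away was 0.785 in intraTAD3, against 1.34 in wild type, and the part of the balancing in this was not tested. Levels are given below divided by that mean as well. On the divided scale a change shared by all distances cannot show.

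At most of the listed genes the remaining contacts of the bin lay within counting error of those of the same bin in wild type. Relative to the mean of the bin, Shh had 5.75 in intraTAD3 on 18 contacts, against 4.16 in wild type, a log2 ratio of 0.47 (-0.26 to 1.19). Rbm33 had a ratio of 0.22 (-0.32 to 0.76), Lmbr1 of 0.02 (-0.26 to 0.29) and Rnf32 of 0.10 (-0.43 to 0.64). Of the 14 genes, 1 was higher and 1 lower on this scale, namely Htr5a with 1.55 (0.22 to 2.87) on 6 contacts and Ube3c with -1.08 (-1.84 to -0.31) on 15 contacts. Windows of 25 kb from all 15 kb viewpoints, read without the scaling, had intervals above 0 in 4.43% and below 0 in 4.59% of this comparison. With 1 gene of 14 in each direction, the counts are near these shares and are no result about the viewpoint. Of 110 windows of 25 kb, 4 were higher and 68 lower by 1.5-fold without that scaling, where all viewpoints gave 5.96% higher and 6.28% lower. A window without a contact in intraTAD3 was counted as lower, and its 1 usable bin was set against all 3 bins of wild type. By intervals, 0 of the 110 were higher and 15 lower. Before the scaling 6 of the 14 genes were lower and 0 higher against the same bin of wild type. Ube3c was also lower against each of the other 4 mutants on the scaled levels, with ratios from -1.18 to -0.93, all of which share the intraTAD3 library. Against its flanks the viewpoint had a log2 ratio of -0.92 (-1.61 to -0.23) at Shh, and 0.01 (-0.67 to 0.70) with every bin divided by its own mean level.

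Of the recovered contacts of that bin, 63.8% (59.9 to 67.5) lay in the Shh domain in intraTAD3, against 56.8%, 56.0%, 58.3% and 57.2% in intraTAD2, i4CTCF, 2xBorCTCF and 1xBorCTCF and 55.6% (54.4 to 56.8) in wild type. On the Mnx1 side lay 19.3% (16.3 to 22.6) in intraTAD3, against 25.9% (24.9 to 27.0) in wild type. The 30 kb from 28,860,001 to 28,890,000 took 3.29% (2.05 to 4.99) of the contacts in intraTAD3, 21 in number, against 1.68%, 1.20%, 1.83% and 1.52% in the other mutants in the same order and 1.45% (1.17 to 1.77) in wild type. Of these 21, 10 fell in the single bin from 28,875,001, where wild type had 9 of its 6,418. Only the bins within 50 kb of the viewpoint had as many, with up to 31. Divided by its own mean level, the third viewpoint bin had 1.54 at this stretch in intraTAD3, against 0.907 in wild type, a log2 ratio of 0.77 (0.0038 to 1.53). Before this division the same bin gave -0.0047 (-0.77 to 0.76), and with all 3 viewpoint bins of wild type, each divided by its own mean, the ratio was 0.46 (-0.26 to 1.19). Against the other mutants the divided ratio of the third bin was 0.65 (-0.09 to 1.39) for intraTAD2, 0.96 (0.12 to 1.8) for i4CTCF, 0.44 (-0.36 to 1.24) for 2xBorCTCF and 0.54 (-0.22 to 1.31) for 1xBorCTCF. At the stretch from 28,670,001 the third bin had 1.43 after the division in intraTAD3, against 1.28 in wild type, a log2 ratio of 0.15 (-0.86 to 1.17), and -0.62 (-1.63 to 0.39) before it, on 10 contacts in intraTAD3.

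The viewpoints of 15 kb whose profiles were most like that of the ZRS lay in Lmbr1 or Rnf32. Leaving out those that adjoin it, the first 3 started at 29,230,001, 29,275,001 and 29,245,001 in intraTAD2, with Spearman correlations of 0.942 to 0.926 over 111 windows of 25 kb. The closest started at 29,335,001 in i4CTCF with 0.905, at 29,275,001 in 2xBorCTCF with 0.886, at 29,275,001 in 1xBorCTCF with 0.921 and at 29,245,001 in wild type with 0.891. In intraTAD3 the closest reached 0.687 and the second, in Rnf32, 0.679, where the viewpoint had 638 contacts. These correlations describe each map, whose windows share a library and its depth.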

How the data were processed

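Capture Hi-C was measured in limb buds of E10.5 mouse embryos, with 5 mutant libraries, 1 for each genotype, and a wild-type map in 1 column of values that belongs to no sample. The authors deposited a signal for each pair of 5 kb bins, balanced by the Knight-Ruiz method at a mapping quality of 30 or more, per the file names. The submitters' processing notes name Bowtie2 2.2.6, mm9 and mm10, with no role, and the files' coordinates were read as mm10. Aligner settings and filters are not given in the sources used here.

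Balancing weights were solved for each map so that every deposited signal became a whole number of contacts, and 100.0% of values came out whole within 0.01. A bin was usable with at least 25% of its map's median number of partners. Balanced values were divided by the average over usable pairs at the same distance in the same map. Ratios are log2 of mean levels over a gene's body with 1 bin either side, a window of 25 kb or a stretch of 30 kb, and the 95% intervals of levels and ratios come from the weighted Poisson error of the recovered contacts, which covers counting error only. Intervals of shares are exact binomial intervals of the recovered contacts, moved onto the balanced share where that is given. They leave out the unequal weights that balancing gives to contacts, so they may be too narrow for balanced shares. Background shares apply the same rules to all 15 kb viewpoints of the region. Bins of 1 map are not replicates, and no test between genotypes was run. Domain borders are the wild-type minima of insulation in 100 kb windows, sought only between Rbm33 and Shh and inside Lmbr1. Start sites and promoter sequences came from RefSeq on GRCm38.p6.

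Genes named were Shh and 13 others of the region. Windows named were taken from the 5 highest in each map and, in each comparison, the 3 highest and 3 lowest ratios with 20 contacts or more and an interval without 0. The members and lists were chosen with earlier results of these data known. The scaling by each viewpoint bin's own mean was added after the values had been seen. The scripts were tested on simulated data. Analyses used Python 3.11.15, numpy 2.4.6, scipy 1.17.1, pandas 2.3.3 and matplotlib 3.10.9.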

Additional observations from a re-analysis of the deposited data

Results flagged for a closer look

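Contacts shorter than 20 kb are outside the comparisons above, and in these maps 2 of their values stood out. The third viewpoint bin had 2421 contacts with itself in 2xBorCTCF, against 186 in intraTAD2, 157 in i4CTCF, 272 in 1xBorCTCF and 316 in wild type. The map of 2xBorCTCF was the shallowest of the 6. In intraTAD3, 18.6% of the recovered contacts of the viewpoint, 170 of 913, stayed inside its 3 bins. The same count was 2,991 of 10,689 in 2xBorCTCF, 1,748 of 23,939 in intraTAD2 and 1,895 of 18,113 in wild type. A cause was not tested for either value.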

How the results depend on the processing

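No paired analysis was possible because each genotype had 1 library, and for the same reason no replicate was left out. Alternatives to the viewpoint bins, usable bins, expected values, balancing, gene spans, windows, borders and flanks were tried, 1 at a time. Of the values that answer a comparison, 144 stayed, 61 moved and 3 changed sign. Of the single genes and windows, 366 stayed, 33 moved and 20 changed sign. A change of sign was counted only where the main interval left out 0, so these numbers do not hold every change of sign. Where the main interval held 0, a change of sign was counted as stayed or moved. A value stayed if its point lay within the main interval, or its count within 1.5 times the main count. The interval of the alternative was not part of this rule, so a value that stayed can have an interval that includes equal levels. The Shh log2 ratio of 2xBorCTCF to intraTAD2 was -0.46 (-0.76 to -0.16) in the main setting. With each viewpoint bin over its own mean it was -0.27 (-0.55 to 0.02), a point within the main interval.

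On recovered contacts without balancing the Shh log2 ratio to wild type was -0.11 in intraTAD2, -0.52 in i4CTCF, -0.64 in 2xBorCTCF, -0.40 in 1xBorCTCF, while intraTAD3 had -3.31. The ratios of intraTAD2 were -0.21 at Rbm33, -0.15 at Dpp6 and -0.12 at the window from 28,555,001. Those of i4CTCF were -0.32 at Lmbr1, -0.28 at Rbm33 and -0.055 at the window from 27,755,001. Lmbr1 had -0.34 in 1xBorCTCF, and the window from 28,380,001 had -0.31 in 2xBorCTCF. The windows past 1.5-fold against wild type numbered 27 in intraTAD2, 28 in i4CTCF, 42 in 2xBorCTCF, 31 in 1xBorCTCF, while intraTAD3 had 110. Unlike the counts given earlier, these pool both directions. No share over all viewpoints was taken in this setting, so they are no result about the viewpoint. The domain shares were 58.9% in intraTAD2, 58.4% in 1xBorCTCF, and 56.8% in wild type. Against its flanks the viewpoint had -0.50 in intraTAD2, -1.03 in i4CTCF and -0.70 in 1xBorCTCF, with intraTAD3 at -3.75 and wild type at 0.041, and the stretch from 28,860,001 had -2.69 in intraTAD3 against wild type. Unbalanced values carry the coverage of the viewpoint bins, which differed between the maps.

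With each viewpoint bin over its own mean the ratio of intraTAD3 to wild type was 0.44 at Shh, 0.052 at Lmbr1, 0.10 at Rbm33 and 0.46 at the stretch from 28,860,001, where the third viewpoint bin alone of both maps gave 0.77. Its viewpoint had 0.013 against its flanks, and Lmbr1 in i4CTCF had -0.00149 against wild type. Window counts with the third viewpoint bin alone also pool both directions and have no background share. Those past 1.5-fold against wild type numbered 23 in intraTAD2, 28 in i4CTCF, 54 in 2xBorCTCF and 21 in 1xBorCTCF. There were 27 for i4CTCF, 56 for 2xBorCTCF and 18 for 1xBorCTCF against intraTAD2, and 50 for 2xBorCTCF against 1xBorCTCF. With that bin alone Insig1 had -0.57 in 2xBorCTCF against 1xBorCTCF, and the window from 28,080,001 had -0.058 against wild type and -0.27 against 1xBorCTCF. The window from 28,380,001 had -0.42 in 2xBorCTCF against wild type, and that from 27,805,001 had 1.42 against intraTAD2. The domain shares were 55.4%, 54.3%, 56.6% and 55.3% in intraTAD2, i4CTCF, 2xBorCTCF and 1xBorCTCF. Without that bin Rbm33 had 0.016 in 2xBorCTCF against intraTAD2.

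Over the gene body alone Shh had -0.15 in i4CTCF against intraTAD2. Around the start of transcription Lmbr1 had -0.088 and Rbm33 -0.86 in i4CTCF, and Lmbr1 -0.21 in 1xBorCTCF, against wild type. In windows of 50 kb, 1 passed in intraTAD2, 2 in i4CTCF, 4 in 2xBorCTCF, 2 in 1xBorCTCF, while intraTAD3 had 40, all against wild type. There were 1 for i4CTCF, 4 for 2xBorCTCF and 1 for 1xBorCTCF against intraTAD2, and 2 for 2xBorCTCF against 1xBorCTCF. At 2-fold, 1, 1, 1 and 1 passed in intraTAD2, i4CTCF, 2xBorCTCF and 1xBorCTCF against wild type. There were 2 for i4CTCF, 4 for 2xBorCTCF and 0 for 1xBorCTCF against intraTAD2, and 2 for 2xBorCTCF against 1xBorCTCF. The counts in windows of 50 kb and at 2-fold pool both directions and have no background share either. Over pairs 50 kb or more apart the domain shares were 52.4% in intraTAD2, 52.8% in i4CTCF, 53.1% in 2xBorCTCF, 52.1% in 1xBorCTCF, 57.8% in intraTAD3 and 50.5% in wild type. With borders from insulation in 50 kb windows they were 60.6%, 60.7%, 61.4% and 59.7% in intraTAD2, i4CTCF, 2xBorCTCF and 1xBorCTCF and 57.9% in wild type. Where no value above shows it, the cause was not tested.

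Depth limits the far windows: the viewpoint pairs held 6,804 contacts in 2xBorCTCF and 7,587 in i4CTCF, against 20,032 in intraTAD2, and intraTAD3 had 638. Every interval covers counting error in 1 library, so no difference here has been set against the spread between embryos.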
